A study of Oryza sativa with 4 samples.

Results

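Aquaporins are channel proteins of cell membranes that let water, and in some members small uncharged solutes, pass down a gradient. Plants hold several subfamilies of them. The plasma membrane intrinsic proteins (PIP) carry water into and out of cells, PIP2 proteins being the efficient water channels and PIP1 proteins often needing a PIP2 partner to reach the membrane. The tonoplast intrinsic proteins (TIP) lie mainly in the vacuole membrane, where they serve the water exchange of growing cells. The nodulin 26-like intrinsic proteins (NIP) carry solutes such as silicic acid and boric acid, and the small basic intrinsic proteins (SIP) are known from the endoplasmic reticulum in Arabidopsis. Members were taken by name, as genes whose symbol or synonym was PIP, TIP, NIP or SIP followed by a pair of numbers. This gave 29 genes, of which 25 had a probe set of their own, among 17905 genes on the array that had one. Of these 25 genes, 10 were PIP, 8 TIP, 5 NIP and 2 SIP. *PIP2-3*, *TIP5-1*, *NIP1-2* and *NIP3-3* had no probe set of their own and were not measured. The bHLH gene *TIP2*, which shares the letters only, is not an aquaporin.

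The arrays compared young panicles of the rice mutant *phoenix* (*pho*) with those of the indica cultivar Zhongxian 3037 (WT), both grown in paddy fields. *pho* is a double mutant that carries a point mutation in *OsMADS15* and an epigenetically silenced *OsMADS1*, and it forms plantlets in place of flowers. There were 4 arrays, each genotype giving 1 array of 5–8 cm panicles and 1 of 9–12 cm panicles. No label tells whether both samples within a genotype were taken from different plants, so the p-values below measure the spread between these samples, panicle length included. Title, source and genotype mark the longer WT sample as WT, although its free-text description mentions *pho*, and it was treated as WT. In these arrays *OsMADS1* had a signal of 4.6 and 109 in *pho* panicles of 5–8 and 9–12 cm, against 10166 and 10671 in WT panicles of the same lengths. *OsMADS15*, whose point mutation need not alter its transcript level, had 15892 and 16022 in *pho*, against 14444 and 15321 in WT.

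The array of long *pho* panicles was unlike the other arrays. Across the tested probe sets its log2 signals correlated at 0.796 to 0.827 with those of the other arrays, which correlated with each other at 0.877 to 0.935. For actin, as a measure of RNA integrity, the control probe set at the 3′ end gave 3.28 and 5.26 times the signal of that at the 5′ end in *pho* panicles of 5–8 and 9–12 cm, against 10.6 and 4.95 in WT panicles of the same lengths. All 7 panicle markers were measured, and their signals summed to 23040 and 22577 in *pho*, against 45825 and 45793 in WT. The list went both ways, with *OsMADS1*, *OsMADS7*, *OsMADS8* and *DL* lower in *pho* at both lengths and *OsMADS14*, *OsMADS15* and *RFL* higher, and *OsMADS1* is the silenced gene itself. Signals of 9 of 11 anther markers summed to 894 and 1655 in *pho*, against 9589 and 53944 in WT, and all 9 were lower in *pho* at both lengths, as were 26.1% of all probe sets. Signals of 8 of 12 leaf markers summed to 35947 and 64798 in *pho*, against 25546 and 18325 in WT, and 7 of the 8 were higher in *pho* without overlap, as were 17.9% of all probe sets. Of 7 root markers only *QHB* and *LSI2* were measured, and their summed signal was 68.8 and 134 in *pho*, against 78.0 and 102 in WT. Whether a lower signal came from fewer cells of a type or from less RNA per cell cannot be told apart in whole panicles.

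Among the aquaporins, *PIP2-7* and *PIP2-5* were lower in *pho* by more than 2-fold at both panicle lengths, while the PIP and TIP genes with the brightest probe sets differed little between the genotypes. *NIP1-1* and *SIP2-1* were also below WT on both *pho* arrays. *PIP1-3* had its one high signal in *pho* panicles of 9–12 cm. No member passed the test of *pho* against WT. Testing was limited to probe sets that averaged 100 or more across all 4 arrays, and 20 of the 25 members reached this, with 9 PIP, 5 TIP, 4 NIP and 2 SIP genes. Signals were compared as log2(signal + 16), which understates the difference of low signals, in a limma fit across 23929 probe sets. After Benjamini-Hochberg adjustment 0 members and 0% of all probe sets were under 0.05. With panicle length as a block, 0 members passed in either direction, beside 0.0334% of all probe sets higher and 0.134% lower. Without adjustment, 0 of 20 members were higher and 2 of 20, *PIP2-7* and *NIP1-1*, were lower in *pho* at p under 0.05, beside 3.45% higher and 3.38% lower among all tested probe sets. The median log2 fold change of *pho* over WT was 0.01 over the 20 members and -0.03 over all tested probe sets.

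**Figure D1:**
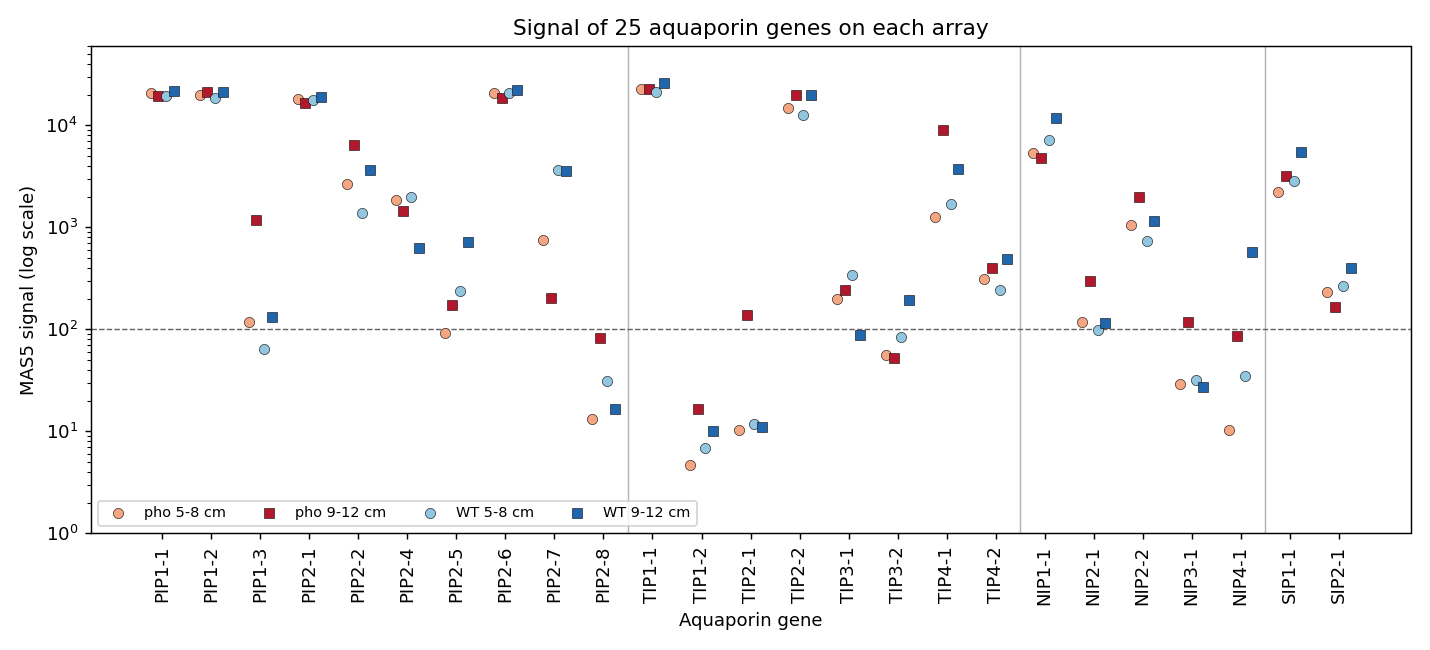
MAS5 signal, on a log axis, of the 25 aquaporin genes on each of the 4 arrays, with *pho* in red shades, WT in blue shades, circles for 5–8 cm and squares for 9–12 cm; grey lines part the PIP, TIP, NIP and SIP genes, and the dashed line is the mean signal of 100 asked for before testing. The points of 6 genes lie together above 10000, and the 2 *pho* points of *PIP2-7* lie well below its 2 WT points.

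The PIP genes held the widest contrast. *PIP2-7* (NCBI gene 4347729), a water channel found mainly in leaf blades of rice seedlings, had a signal of 756 and 201 in *pho* panicles of 5–8 and 9–12 cm, against 3632 and 3584 in WT panicles of the same lengths. The WT arrays were nearly equal, both *pho* arrays lay below them, and the *pho* array of 9–12 cm was the lowest. WT exceeded *pho* 4.81-fold at 5–8 cm and 17.8-fold at 9–12 cm. The log2 fold change of *pho* over WT was -3.15 (standard error 0.641, 95% interval -4.80 to -1.49), with an adjusted p of 0.484 in limma, and the adjusted p ran between 0.0566 and 0.99999 over the alternative settings. It was the 225th probe set of all those tested when ordered by p. With the 9–12 cm *pho* array left out the log2 fold change was -2.23, with an adjusted p of 0.236 in limma. On the same arrays the summed leaf markers were higher and the summed anther markers lower in *pho* at both lengths, and their part in the *PIP2-7* signal was not tested.

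*PIP2-5* (NCBI gene 4343121), which encodes a water channel known from rice roots, had a signal of 91.0 and 173 in *pho*, against 237 and 725 in WT. The genotypes did not overlap, and WT exceeded *pho* 2.61-fold at 5–8 cm and 4.20-fold at 9–12 cm. Its log2 fold change was -1.61 (standard error 0.655, 95% interval -3.30 to 0.08, adjusted p = 0.735 in limma), and -0.83 when the WT array of 9–12 cm was left out. *PIP2-5* stands next to *PIP2-1* in the RefSeq annotation ASM3414082v1, with 0 genes between them, and *PIP2-4* follows with 1 gene between it and *PIP2-5*. These neighbours did not share the difference. *PIP2-1* had a signal of 18169 and 16562 in *pho*, against 17676 and 18804 in WT, and *PIP2-4* had 1831 and 1432 in *pho*, against 1965 and 632 in WT. For both genes the groups overlapped, and the *pho* over WT log2 ratio of *PIP2-4* was -0.10 at 5–8 cm and 1.16 at 9–12 cm. A probe set that matches *PIP2-1* and *PIP2-5* alike and stands for neither gave 11271 and 12668 in *pho*, against 12564 and 13808 in WT.

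Of the PIP1 genes, *PIP1-3*, also described as *RWC3*, had a signal of 117 and 1168 in *pho*, against 64.6 and 133 in WT. The *pho* array of 9–12 cm stood far above the others, while the *pho* array of 5–8 cm lay between the WT arrays. *pho* exceeded WT by a log2 ratio of 0.72 at 5–8 cm and by 2.99 at 9–12 cm. The fit gave a log2 fold change of 1.85 (standard error 1.10, 95% interval -0.99 to 4.70, adjusted p = 0.768 in limma), which became 0.28 when that array was left out. The leaf marker sum was also highest on that array, and all 8 leaf markers had their highest signal there, beside 35.2% of all probe sets. The summed signal of the root markers *QHB* and *LSI2*, both with a mean below 100, was highest there as well. Of all probe sets with such a mean, 39.5% had their highest signal on that array. *QHB* had 92.3 there and 92.2 in WT panicles of 9–12 cm, so the sum was higher through *LSI2*, with 41.4 against 9.7. The part of leaf or root tissue in the *PIP1-3* signal was not tested. *PIP2-2*, of the efficient water channel class, had 2673 and 6381 in *pho*, against 1381 and 3615 in WT. It was higher in *pho* by a like amount at both lengths, with log2 ratios of 0.94 at 5–8 cm and 0.82 at 9–12 cm. The spread with panicle length made the groups overlap. This probe set of *PIP2-2* may also match other transcripts. The other probe set of the gene stayed low, with 16.9 and 11.8 in *pho*, against 25.5 and 8.2 in WT.

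**Figure D2:**
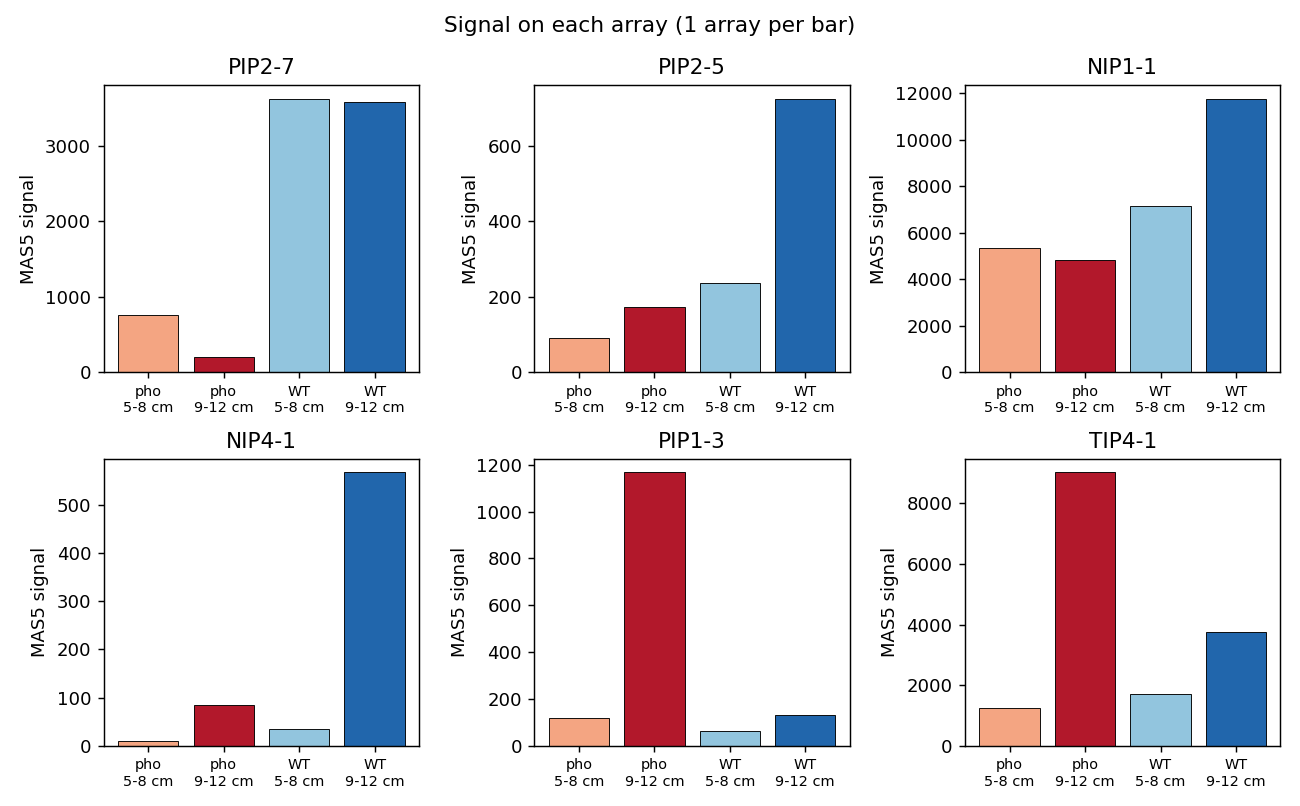
MAS5 signal of *PIP2-7*, *PIP2-5*, *NIP1-1*, *NIP4-1*, *PIP1-3* and *TIP4-1*, with 1 bar per array, each panel on its own linear axis that starts at 0. The *pho* bars of *PIP2-7*, *PIP2-5* and *NIP1-1* all lie below their WT bars, *NIP4-1* is highest in WT panicles of 9–12 cm, and *PIP1-3* and *TIP4-1* are highest in *pho* panicles of 9–12 cm.

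Of the other PIP genes, *PIP1-1*, *PIP1-2* and *PIP2-6* were bright on every array. *PIP1-1* had a signal of 20518 and 19595 in *pho*, against 19272 and 21674 in WT, with a log2 fold change of -0.03 (standard error 0.164, 95% interval -0.45 to 0.40, adjusted p = 0.974 in limma). *PIP1-2* had 19659 and 21402 in *pho*, against 18358 and 21061 in WT, with a log2 fold change of 0.06 (standard error 0.171, 95% interval -0.38 to 0.50, adjusted p = 0.943 in limma). *PIP2-6* had 20867 and 18472 in *pho*, against 20724 and 22154 in WT, with a log2 fold change of -0.13 (standard error 0.166, adjusted p = 0.871 in limma). The groups overlapped for *PIP1-1* and *PIP1-2* and for *PIP2-6*, and the sign of the first 2 turned when single arrays were left out. *PIP2-1*, *TIP1-1* and *TIP2-2* also had more than 10000 on all 4 arrays, which makes 6 such members with signals between 12526 and 25763. Their log2 ratios of *pho* over WT at a single panicle length ran between -0.26 and 0.22, and the 95% intervals of their fold changes together spanned -0.65 to 0.88 on the log2 scale.

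TIP genes showed no member that was apart between the genotypes among those tested. *TIP1-1* had a signal of 22556 and 22942 in *pho*, against 21428 and 25763 in WT, with a log2 fold change of -0.05 (standard error 0.171, adjusted p = 0.959 in limma). *TIP2-2* had 14623 and 19808 in *pho*, against 12526 and 19728 in WT, with a log2 fold change of 0.11 (standard error 0.299, 95% interval -0.65 to 0.88, adjusted p = 0.940 in limma). For *TIP1-1* both *pho* arrays lay within the WT range, and for *TIP2-2* the arrays were ordered by panicle length rather than by genotype. *TIP4-1* had 1250 and 9028 in *pho*, against 1705 and 3756 in WT. It was lowest in *pho* panicles of 5–8 cm and highest in those of 9–12 cm, and its log2 fold change of 0.41 (standard error 0.9998, adjusted p = 0.934 in limma) was -1.01 once the 9–12 cm *pho* array was left out. *TIP4-2* had 314 and 403 in *pho*, against 243 and 490 in WT, both *pho* arrays lying inside the WT range.

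The TIP3 proteins are known from seed storage vacuoles in Arabidopsis. *TIP3-1* had a signal of 198 and 243 in *pho*, against 343 and 88.5 in WT. The WT arrays lay on both sides of the *pho* arrays, so that *pho* was the lower genotype at 5–8 cm and the higher at 9–12 cm, and the log2 fold change was 0.28 (standard error 0.680, adjusted p = 0.933 in limma). *TIP3-2* did not reach a mean signal of 100 and was not tested. Its signals of 55.9 and 52.5 in *pho* were both below those of 84.3 and 196 in WT.

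Of the NIP genes, *NIP1-1* (NCBI gene 4328814) had a signal of 5343 and 4820 in *pho*, against 7153 and 11764 in WT. Both *pho* arrays were below both WT arrays, by a log2 ratio of -0.42 at 5–8 cm and -1.28 at 9–12 cm. The log2 fold change was -0.85 (standard error 0.309, 95% interval -1.65 to -0.06, adjusted p = 0.709 in limma), and -0.49 when the WT array of 9–12 cm was left out. *NIP4-1* had 10.2 and 85.3 in *pho*, against 34.5 and 568 in WT. In Arabidopsis, NIP4 proteins are known as pollen aquaporins. *NIP4-1* was lower in *pho* at each length, but the groups overlapped, and the log2 fold change was -1.74 (standard error 1.39, adjusted p = 0.808 in limma) and 0.03 without the WT array of 9–12 cm. On that WT array the anther marker sum was also highest, but the markers were not alike in this. *OsC6*, a lipid transfer protein of the tapetum, had 28.0 and 205 in *pho*, against 47.0 and 15333 in WT. *EAT1* had 2.9 and 36.6 in *pho*, against 879 and 1007 in WT. The bHLH gene *TIP2* alone was lower in the longer WT panicles, with 36.4 and 88.6 in *pho*, against 1644 and 1140 in WT. The part of anther tissue in the *NIP4-1* signal was not tested.

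The silicon channels had the higher signals in *pho*, largely on the array of 9–12 cm. *NIP2-1*, known as *Lsi1*, the silicon influx channel of rice roots, had a signal of 117 and 295 in *pho*, against 98.8 and 115 in WT. The groups lay apart, but the *pho* array of 5–8 cm exceeded the higher WT array only slightly. Its log2 fold change was 0.73 (standard error 0.576, adjusted p = 0.805 in limma), and 0.12 with the 9–12 cm *pho* array left out. *NIP2-2*, known as *Lsi6*, which moves silicon out of the xylem and towards the panicle at the nodes, had 1044 and 1977 in *pho*, against 726 and 1163 in WT. It was higher in *pho* at both lengths, with log2 ratios of 0.51 at 5–8 cm and 0.76 at 9–12 cm, although the groups overlapped, and its log2 fold change was 0.64 (standard error 0.450, adjusted p = 0.794 in limma), and 0.18 with that array left out. The silicon efflux transporter *LSI2*, which is not an aquaporin, had 4.2 and 41.4 in *pho*, against 4.1 and 9.7 in WT, all below the mean asked for before testing.

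Both SIP genes were lower in *pho* at both lengths. *SIP1-1* had a signal of 2214 and 3149 in *pho*, against 2813 and 5419 in WT, and the groups overlapped. Its log2 fold change was -0.56 (standard error 0.415, adjusted p = 0.795 in limma). It was -0.091 when the WT array of 9–12 cm was left out and -1.03 when that of 5–8 cm was. *SIP2-1* had 231 and 167 in *pho*, against 265 and 403 in WT, and its groups did not overlap. Its log2 fold change was -0.69 (standard error 0.407, adjusted p = 0.766 in limma), and -0.40 when the WT array of 9–12 cm was left out. The difference of *SIP2-1* was small at 5–8 cm, with a log2 ratio of -0.18, and larger at 9–12 cm, with -1.19.

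Besides *TIP3-2*, 4 members stayed below a mean signal of 100. These were *PIP2-8*, *TIP1-2*, *TIP2-1* and *NIP3-1*, the last a boron channel of rice. Signals of the 5 low members lay between 4.7 and 196. The 4 apart from *TIP3-2* all had their highest signal in *pho* panicles of 9–12 cm, an array where 39.5% of all probe sets with a mean below 100 had theirs. *NIP3-1* had 29.2 and 118 in *pho*, against 31.5 and 27.4 in WT. *TIP2-1* had 10.2 and 139 in *pho*, against 11.9 and 11.1 in WT, on a probe set that may also match other transcripts. The dimmer probe set of *TIP2-1* did not share the rise, with 23.2 and 13.4 in *pho*, against 13.0 and 33.6 in WT.

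Counted over all 25 members, the groups did not overlap for 6. *NIP2-1* was higher in *pho*, and *PIP2-5*, *PIP2-7*, *TIP3-2*, *NIP1-1* and *SIP2-1* were lower. Among all probe sets 17.9% did not overlap with *pho* higher and 16.9% with *pho* lower, so 1 and 5 of 25 are few on the higher side and near the background on the lower side. The signal was higher in *pho* at both lengths for 6 members and lower for 7, beside 28.7% and 26.1% of all probe sets, and 12 members differed in direction between the lengths. A difference of more than 2-fold at both lengths was seen for 0 members with *pho* higher, beside 1.91% of all probe sets. It was seen for 2 members with *pho* lower, *PIP2-7* and *PIP2-5*, beside 1.62%. Without the *pho* array of 9–12 cm, 11 members were below both WT arrays and 1 was above both, beside 35.5% and 33.0% of all probe sets. The median log2 ratio of *pho* over WT over the 20 tested members was 0.02 at 5–8 cm and -0.16 at 9–12 cm.

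**Figure D3:**
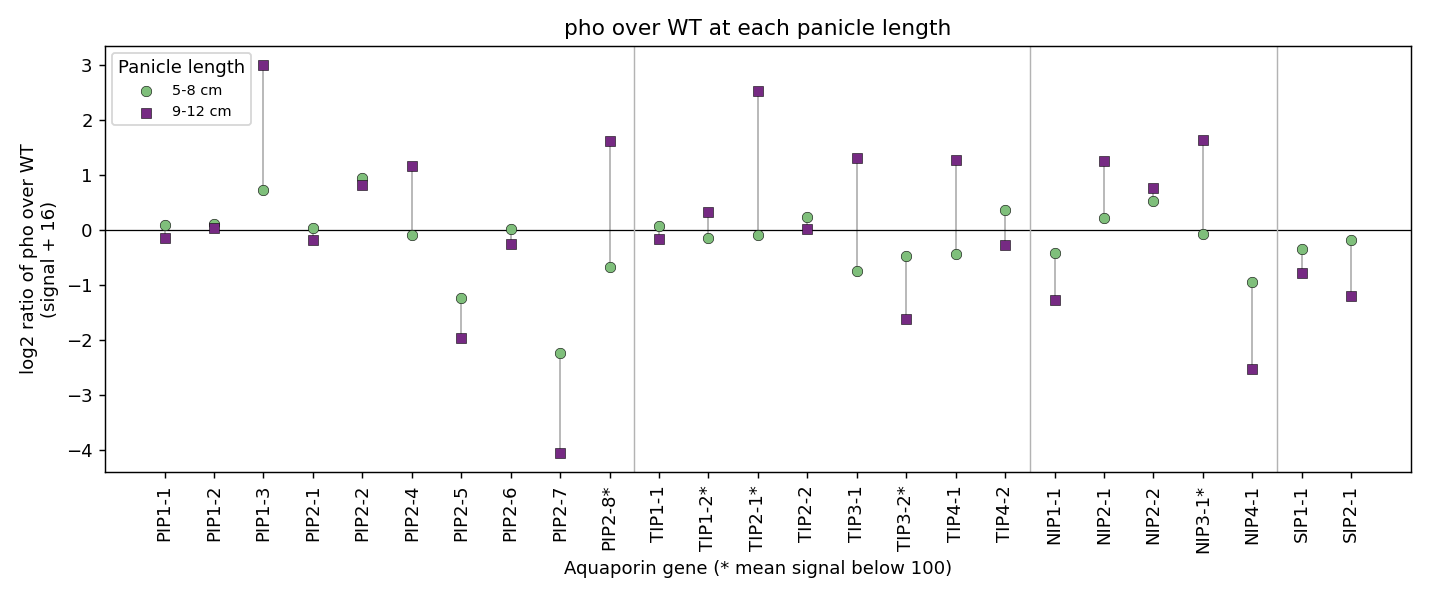
The log2 ratio of *pho* over WT, from signals with 16 added, for each aquaporin gene at 5–8 cm (circles) and 9–12 cm (squares), with 1 array per genotype and length and no error to show; a star marks genes with a mean signal below 100. Both points of *PIP2-7* and *PIP2-5* lie below -1, and *PIP1-3* and *TIP2-1* have their high points at 9–12 cm only.

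Panicle length was compared in a limma fit with genotype as a term, with the 2 arrays of 9–12 cm set against the 2 of 5–8 cm. These are the same 4 arrays as in the comparison of genotypes. No member and 0% of all probe sets passed, and the lowest adjusted p of a member over the settings with a test was 0.213. Without adjustment, 7 of 20 members were higher and 0 were lower in the longer panicles at p under 0.05, beside 6.99% higher and 3.56% lower among all probe sets. These 7 were *PIP1-3*, *PIP2-2*, *PIP2-5*, *TIP4-1*, *NIP2-2*, *NIP4-1* and *SIP1-1*. *NIP4-1* was tested only because of its signal in WT panicles of 9–12 cm, so its place among them is no support. With each array centred on its median instead, 4 members were higher (*PIP1-3*, *PIP2-2*, *TIP4-1* and *NIP4-1*) and 2 were lower (*PIP2-4* and *PIP2-7*), beside 4.53% higher and 12.7% lower among all probe sets. The median log2 fold change of 9–12 cm over 5–8 cm was 0.42 over the members and -0.08 over all tested probe sets, and centring each array on its median moved these to 0.13 and -0.36. Over the 18 members with a mean signal of at least 200 the median was 0.22.

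*PIP2-2* had the lowest p of the members here, on the probe set that may also match other transcripts. It had 6381 in *pho* panicles of 9–12 cm, against 2673 in those of 5–8 cm, and 3615 against 1381 in WT. The ratio of longer to shorter panicles was 2.39 in *pho* and 2.62 in WT, and the log2 fold change was 1.31 (standard error 0.246, adjusted p = 0.281 in limma). *TIP4-1* was higher in longer panicles of both genotypes, 7.22-fold in *pho* and 2.20-fold in WT (log2 fold change 1.98, standard error 0.451, adjusted p = 0.352 in limma). The other probe set of *TIP4-1* stayed low and did not rise in *pho*, with 6.3 and 5.4 in *pho*, against 8.3 and 34.2 in WT. *NIP4-1* was higher 8.36-fold in *pho* and 16.5-fold in WT (log2 fold change 2.74, standard error 0.723, adjusted p = 0.405 in limma). Its *pho* signal at 5–8 cm, 10.2, was below 15.1, the median on that array of probe sets with a mean below 100. These folds thus divide by low signals. *PIP1-3* was higher 9.99-fold in *pho* and 2.06-fold in WT (log2 fold change 2.02, standard error 0.656, adjusted p = 0.438 in limma). *PIP2-5* was higher 1.90-fold in *pho* and 3.06-fold in WT. Thus, on the probe sets used, these genes had the higher signal in the longer panicles of either genotype. The step of *PIP2-2* was alike in *pho* and WT, and that of the others differed in size. Each step rests on 1 array per genotype and length.

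Over all 25 members, 13 were higher at 9–12 cm in both genotypes and 2, *PIP2-4* and *PIP2-7*, were lower in both, beside 33.5% and 23.5% of all probe sets. *PIP2-7* was nearly level in WT, where the longer panicles had 0.987 times the signal of the shorter ones, and had 0.266 times in *pho*. For *PIP2-4* the values were 0.782 times in *pho* and 0.322 times in WT. In *pho* 8 of 25 members were more than 2-fold higher in the longer panicles, beside 16.9% of all probe sets, and in WT 5 of 25 were, beside 10.4%. The highest signal of 11 members, and of 35.2% of all probe sets, was on the *pho* array of 9–12 cm.

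**Figure D4:**
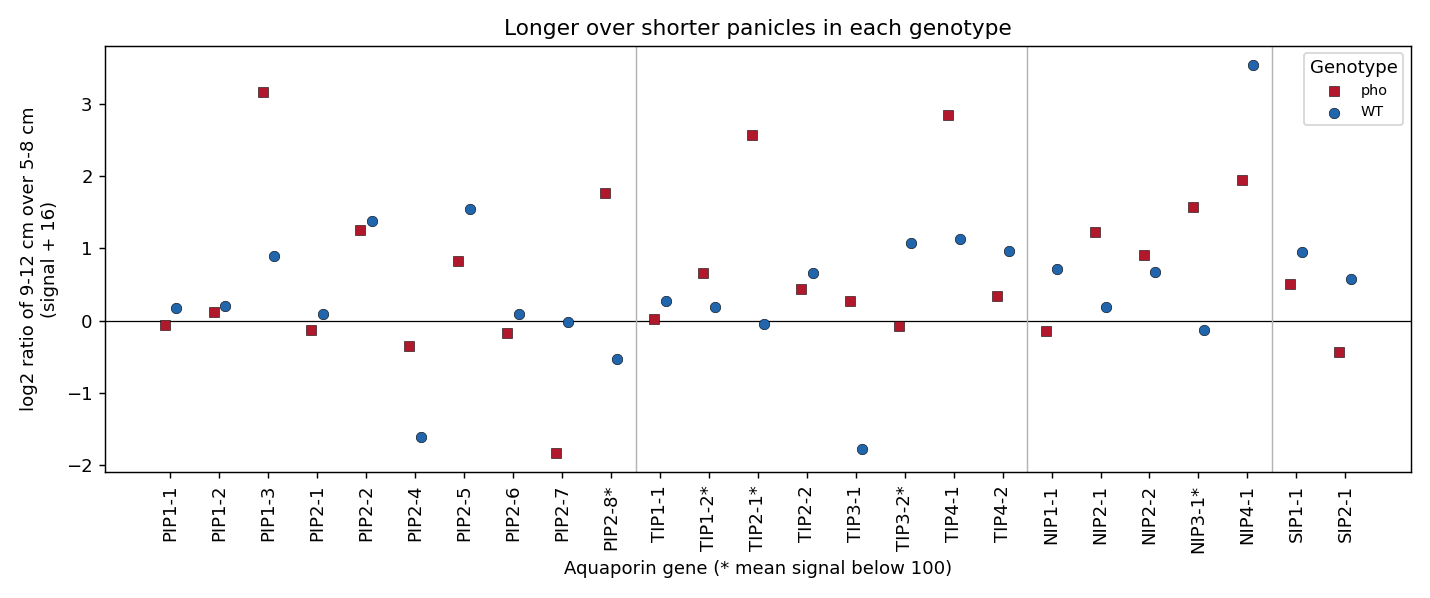
The log2 ratio of 9–12 cm over 5–8 cm panicles, from signals with 16 added, for each aquaporin gene in *pho* (red squares) and WT (blue circles), with 1 array per point; a star marks genes with a mean signal below 100. *NIP4-1*, *TIP4-1*, *PIP1-3*, *PIP2-2* and *PIP2-5* lie above 0 in both genotypes, and *PIP2-4* and *PIP2-7* lie below 0 in both.

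Carriers of sugars and ions, whose solutes water follows into cells, were taken by name as a list of their own, with potassium and sodium carriers and channels, sucrose carriers, SWEET sugar channels and the silicon carrier *LSI2*, which also served as a root marker. It held 52 genes, of which 41 had a probe set and 28 were tested, and 0 passed in the limma fit of *pho* against WT. The groups did not overlap with *pho* higher for 5 of the 41 and with *pho* lower for 9, beside the 17.9% and 16.9% of all probe sets given above, and the median log2 fold change was 0.04. *SUT5*, a sucrose carrier, had 49.4 and 64.1 in *pho*, against 259 and 382 in WT (log2 fold change -2.19, standard error 0.465, adjusted p = 0.513 in limma). *SUT2*, a sucrose carrier of the vacuole membrane, had 2330 and 644 in *pho*, against 4409 and 3586 in WT (log2 fold change -1.68, standard error 0.641, adjusted p = 0.726 in limma), and its log2 fold change was -0.77 without the longer *pho* panicles. On these probe sets both lay below WT without overlap. A second *SUT2* probe set, dimmer on average, gave 1825 and 2786 in *pho*, against 1870 and 2449 in WT. Its groups overlapped, so the lower *SUT2* signal rests on 1 probe set.

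SWEET proteins let sugars leave cells. *SWEET1a* had 4686 and 5935 in *pho*, against 9728 and 12741 in WT, and *SWEET15*, which works in grain filling, had 415 and 219 in *pho*, against 566 and 1245 in WT. Their log2 fold changes were -1.08 (standard error 0.257, adjusted p = 0.550 in limma) and -1.43 (standard error 0.536, adjusted p = 0.723 in limma). *SWEET4*, a hexose carrier of grain filling, had 6427 and 13104 in *pho*, against 5395 and 4883 in WT (log2 fold change 0.84, standard error 0.387, adjusted p = 0.760 in limma). The groups did not overlap for any of these 3 genes, with *SWEET4* alone higher in *pho*. Leaving out the *pho* array of 9–12 cm gave 0.32 for *SWEET4*, and leaving out the WT array of 9–12 cm gave -0.87 for *SWEET15*. *SWEET11*, which exports sucrose, had 14529 and 7236 in *pho*, against 13958 and 12478 in WT (log2 fold change -0.36, adjusted p = 0.839 in limma), its groups overlapped, and its log2 fold change was 0.14 without the longer *pho* panicles.

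Potassium carriers of the HAK family were mixed. *HAK5* had 8843 and 9449 in *pho*, against 14658 and 14974 in WT, without overlap and with close values within each genotype (log2 fold change -0.70, standard error 0.181, adjusted p = 0.587 in limma). A second *HAK5* probe set, far dimmer, went the other way, with 27.8 and 48.7 in *pho*, against 9.3 and 10.9 in WT. *HAK22* had 57.8 and 824 in *pho*, against 21.8 and 171 in WT (log2 fold change 1.57, standard error 1.40, adjusted p = 0.822 in limma). As with *PIP1-3*, the high signal of *HAK22* was that of *pho* panicles of 9–12 cm, without which its log2 fold change was -0.19.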

How the data were processed

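Total RNA of panicles was hybridized to 1-colour Affymetrix GeneChip Rice Genome Arrays. The authors summarized each probe set as an intensity, the MAS5 signal of GCOS (versions not given in the sources used here), scaled to one overall level, and these deposited linear signals were used. They ran from 0.1 to 37631. The number of arrays, 2 per genotype, limits the precision.

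Of 57381 probe sets, 123 controls were left out. The platform annotation pairs 22436 with 1 gene, 95 with several and 34727 with none. A gene was represented by its own probe set with the highest mean signal, and 5 members had several. For 6 members that probe set ends in _s_at or _x_at and may also match other transcripts. Genotypes were compared in limma 3.58.1 (R 4.3.3) by lmFit and a trended eBayes, two-sided, on log2(signal + 16) of the 23929 probe sets whose mean reached 100, genotype being the single term. A second fit tested panicle length with genotype as a term. The procedure was tested on simulated data.

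In the published methods only panicles of 5–8 cm are described, and no test is named. By the labels, replicate 1 stands for 5–8 cm and replicate 2 for 9–12 cm, which pairs the arrays. Deviations of same-numbered arrays correlated at 0.311. Members, lists and tests were chosen with earlier results of these data known. Signals are given for members with a mean of at least 100, and test values for the 3 brightest and the 3 most different of each subfamily. The low members named and the length examples were chosen after their values were seen. From the list of carriers, the 4 brightest and the 4 most different are given, and a photosystem gene that its naming rule also took was left out. Alternatives were other pseudocounts, filters and scalings, no trend, panicle length as a block, leaving out ambiguous probe sets, the mean over a gene's probe sets and leaving out each array.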

Additional observations from a re-analysis of the deposited data

Results flagged for a closer look

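*TIP3-1* moved in opposite directions at the 2 panicle lengths. The log2 ratio of its *pho* signal to its WT signal was 1.31 at 9–12 cm and -0.74 at 5–8 cm, a difference of 2.05 on the log2 scale that rests on 1 array in each cell and was not tested. A probe set of *PIP2-1*, not used for the gene because it was dimmer, gave 16.9 and 875 in *pho* panicles of 5–8 and 9–12 cm, against 25.5 and 29.7 in WT. The probe set used for *PIP2-1* was not higher on that array, with 18169 and 16562 in *pho*, against 17676 and 18804 in WT, and a further one matched it, with 14614 and 14527 in *pho*, against 14618 and 16734 in WT. The dimmest of the 3 probe sets thus stood alone.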

How the results depend on the processing

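No aquaporin passed the test of *pho* against WT under any of the 15 settings with a test, or that of panicle length under any of 9. The number of arrays, 2 per genotype, limits the precision, and panicle length is part of their spread. Over all probe sets, the count past the threshold between *pho* and WT, 0 as reported, became 51 under centring of the arrays on their medians (11 higher and 40 lower) and 40 with panicle length as a replicate block (8 higher and 32 lower, or 0.0334% and 0.134%). The block changed no member's call. For panicle length the count was 14 with median centring (13 higher and 1 lower), which also gave the members a median of 0.13. Leaving out 1 array in turn, the median log2 fold change of *pho* over WT ran between -0.17 and 0.044 over the members, with -0.17 without the WT array of 5–8 cm. It ran between -0.36 and 0.079 over the list of carriers, with -0.36 without the *pho* array of 9–12 cm and -0.24 without the WT array of 5–8 cm. An alternative chosen after seeing the data left out the *pho* array of 9–12 cm, so that fewer arrays had to agree. Members below both WT arrays then numbered 11 in place of 5, and those above both stayed at 1. Among all probe sets these shares were 35.5% and 33.0%, in place of 16.9% and 17.9%. The cause of the change was not tested.

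The sign of the fold change of *pho* over WT turned in at least 1 setting for 10 of the 20 tested members. With 1 array left out, the log2 fold change ran between -0.11 and 0.057 for *PIP1-1*, -0.038 and 0.16 for *PIP1-2*, -0.18 and 0.086 for *TIP1-1*, -0.21 and 0.44 for *TIP2-2*, -1.01 and 1.83 for *TIP4-1*, -0.61 and 1.17 for *TIP3-1*, -3.50 and 0.029 for *NIP4-1*, -0.44 and 0.52 for *TIP4-2* and -0.28 and 1.34 for *PIP2-4*. Median centring gave -0.024 for *PIP1-2*, and the mean over all its probe sets gave -0.13 for *TIP4-1* and 0.60 for *PIP2-1*. *TIP4-2* was also below 0 with median centring (-0.046) and with quantile normalization (-0.047). The causes were not tested. For panicle length, leaving out an array left no degrees of freedom among the arrays, so that those values have no test. Over the single members whose test values are given, 193 results under an alternative kept their direction and 13 turned. Several alternatives, such as no trend, the block and the filters, leave a fold change as it is. Under those its direction could not turn, so the 193 do not measure robustness.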

Other observations

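Further potassium carriers of the HAK family, outside the rule for named genes and chosen after their values were seen, also lay apart between the genotypes. *HAK7* had a signal of 1055 and 1788 in *pho* panicles of 5–8 and 9–12 cm, against 923 and 554 in WT, and *HAK11* had 563 and 900 in *pho*, against 507 and 492 in WT. Both were higher in *pho* on each array. *HAK12* had 723 and 399 in *pho*, against 819 and 811 in WT, and *HAK2* had 952 and 887 in *pho*, against 1001 and 1524 in WT, so that these family members were lower in *pho*. *HAK15* had 2458 and 2381 in *pho*, against 2293 and 1482 in WT. Of the 22 HAK genes with a probe set, 4 lay apart with *pho* higher and 3 with *pho* lower, beside 17.9% and 16.9% of all probe sets. These counts are near the background, so the genes named here are examples and show no trait of the family.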
